A study of Mus musculus with 108 samples.

Results

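The genes Tal1, Lyl1, Lmo2 and Gata2 were examined as 4 stretches of the mouse genome, each holding the gene body and 100 kb on either side. Genomic fragments that had been tested in a reporter screen and that overlapped these stretches were collected from every sorted list. Overlapping fragments were merged into sites, distal and promoter fragments apart, and a promoter fragment is one that the authors placed close to a transcription start. These stretches, called windows here, held 104 of the 76765 sites of the series, of which 76 were distal and 28 were promoter sites. They held 1772 of 1176712 distinct fragments: 473 in the Tal1 window, 836 in the Lyl1 window, 166 in the Lmo2 window and 297 in the Gata2 window. The genes were picked by name and position, not by a rule on measured values. Earlier results of these data were known when they were chosen.

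All 4 genes encode parts of one transcription factor complex of early blood cells. TAL1 and its close relative LYL1 are basic helix-loop-helix proteins that bind E-box sequences together with an E protein. LMO2 has no DNA contact of its own and bridges TAL1 or LYL1, through LDB1, to GATA2, a zinc finger factor that binds GATA sequences. TAL1, LMO2 and GATA2 are required for blood formation in the embryo, and enhancers of these genes are bound by the complex itself and by ETS factors.

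In the screen, open chromatin fragments released by Tn5 transposase were cloned before the HSP68 minimal promoter and Venus-YFP and placed at the Hprt locus of HM-1 mouse embryonic stem cells. Chromatin and sorted cells came from 5 stages of in vitro differentiation: embryonic stem cells (ES), FLK1+ hemangioblasts (HB), hemogenic endothelium that was KIT+ TIE2+ CD41- (HE1) or KIT+ TIE2+ CD41+ (HE2), and KIT+ TIE2- CD41+ hematopoietic progenitors (HP). At each stage cells were sorted on YFP through 4 gates (Negative, Low, Medium, High), except that replicate 5 had a joint Medium-High gate. All groups thus share the parental line, the integration site and the minimal promoter, and the reporter did not stand at the gene's own locus. In addition, the cloned material was sequenced once per stage in an entry vector (pDONR) and once in the reporter vector (pSKB), and 3 PCR controls came from HM-1 cells without a reporter library.

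For each stage and replicate, the lists of the Low, Medium, High and Medium-High gates were joined into 1 positive set, which gave 25 positive and 25 Negative sets. A level is the number of distinct fragments per 10000 fragments listed in the set, so that deep and shallow sets are on 1 scale. It counts fragments that were recovered, not the cells that carried them or the brightness of those cells. Sets held between 720 and 229660 fragments. Replicates 1 and 2 supplied most of them, for example 203262 of the 239751 fragments of the ES positive sets, and in replicates 3 to 5 a single fragment can move a level by several units. In HE1, the Negative list of replicate 1 shared 89445 fragments with the Medium list of replicate 2 (68.3% and 78.5% of each list). The Negative list of replicate 3 shared 5683 with the Low list of replicate 4 (83.0% and 49.2%). These 4 lists were kept, and every comparison with HE1 was also run without them. Without them, the pooled positive HE1 level was 4.09 per 10000 in place of 4.23 for Tal1, 7.41 in place of 7.19 for Lyl1, 1.45 in place of 1.32 for Lmo2 and 2.71 in place of 2.62 for Gata2. The pooled Negative HE1 level of Gata2 was 4.37 in place of 2.76, and those of the other windows moved by less. HE1 counts of single sites below include these lists unless stated, so that their positive and Negative counts are not independent. No label says whether replicates were separate cultures, so that a p-value measures only the spread between these sets. The stage labels were checked on the pDONR lists, where Pou5f1, Nanog and Sox2 were highest in ES, Etv2 in HB, Cdh5 and Tek in HE1, Kit in HE2, and Itga2b and Spi1 in HP. In contrast, the FLK1 gene Kdr was at 66.3 distinct fragments per 1000000 in HB and at 114 in HE1.

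Stretches of 300 bp from 8 distal sites are given here, since these sites carry the stage and gate patterns described below. They were read from GRCm38 (mm10), plus strand, 5′ to 3′. Each lies around the point covered by most fragments, except that of Gata2 +9.6 kb, which was placed around its composite motif after the motif had been found. A site is named by the distance of its middle from the annotated start of the gene. Capitals mark GATA motifs (AGATAA or TGATAA) and E-boxes (CAGCTG or CAGATG) on either strand.
Tal1 -3.7 kb, chr4:115052641-115052940: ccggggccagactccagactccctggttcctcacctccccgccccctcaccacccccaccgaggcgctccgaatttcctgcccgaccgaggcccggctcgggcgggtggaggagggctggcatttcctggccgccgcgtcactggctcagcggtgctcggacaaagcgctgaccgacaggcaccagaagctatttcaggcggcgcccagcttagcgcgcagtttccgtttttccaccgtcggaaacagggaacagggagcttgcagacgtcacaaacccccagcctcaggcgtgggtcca
Tal1 +19.3 kb, chr4:115075358-115075657: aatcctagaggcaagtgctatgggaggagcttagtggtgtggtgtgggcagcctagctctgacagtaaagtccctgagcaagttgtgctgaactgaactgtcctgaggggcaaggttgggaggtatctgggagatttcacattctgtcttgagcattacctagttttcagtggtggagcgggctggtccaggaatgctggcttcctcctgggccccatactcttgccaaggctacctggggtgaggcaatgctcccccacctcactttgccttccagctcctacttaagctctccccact
Tal1 +39.5 kb, chr4:115095715-115096014: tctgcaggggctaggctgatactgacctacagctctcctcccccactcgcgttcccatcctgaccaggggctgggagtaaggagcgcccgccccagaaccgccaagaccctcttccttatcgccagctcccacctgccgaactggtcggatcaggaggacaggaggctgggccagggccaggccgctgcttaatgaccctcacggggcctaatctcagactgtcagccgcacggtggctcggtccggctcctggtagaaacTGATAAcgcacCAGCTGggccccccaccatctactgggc
Lyl1 -62.0 kb, chr8:84639341-84639640: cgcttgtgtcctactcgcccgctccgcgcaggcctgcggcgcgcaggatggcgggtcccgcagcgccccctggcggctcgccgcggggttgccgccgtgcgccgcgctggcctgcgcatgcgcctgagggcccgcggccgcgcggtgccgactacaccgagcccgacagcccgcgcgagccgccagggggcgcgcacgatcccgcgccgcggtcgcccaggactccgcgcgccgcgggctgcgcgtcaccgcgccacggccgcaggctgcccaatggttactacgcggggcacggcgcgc
Lmo2 -64.0 kb, chr2:103893771-103894070: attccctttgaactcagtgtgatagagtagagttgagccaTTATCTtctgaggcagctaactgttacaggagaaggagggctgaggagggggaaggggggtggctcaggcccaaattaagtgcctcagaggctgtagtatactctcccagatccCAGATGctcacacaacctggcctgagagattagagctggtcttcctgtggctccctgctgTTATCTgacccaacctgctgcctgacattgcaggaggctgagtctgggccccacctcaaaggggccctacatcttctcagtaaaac
Gata2 -69.9 kb, chr6:88123768-88124067: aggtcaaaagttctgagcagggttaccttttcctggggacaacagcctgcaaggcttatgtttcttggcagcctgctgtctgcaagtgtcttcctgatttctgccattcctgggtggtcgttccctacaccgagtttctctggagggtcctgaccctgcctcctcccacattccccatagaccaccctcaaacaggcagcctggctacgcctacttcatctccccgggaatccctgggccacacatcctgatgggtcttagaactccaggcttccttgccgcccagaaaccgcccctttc
Gata2 -4.1 kb, chr6:88189547-88189846: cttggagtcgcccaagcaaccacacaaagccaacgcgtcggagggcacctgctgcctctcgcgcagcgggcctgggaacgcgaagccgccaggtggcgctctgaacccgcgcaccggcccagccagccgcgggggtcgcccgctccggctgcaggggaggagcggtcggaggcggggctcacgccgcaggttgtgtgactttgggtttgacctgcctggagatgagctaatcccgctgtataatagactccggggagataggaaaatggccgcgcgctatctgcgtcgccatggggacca
Gata2 +9.6 kb, chr6:88203045-88203344: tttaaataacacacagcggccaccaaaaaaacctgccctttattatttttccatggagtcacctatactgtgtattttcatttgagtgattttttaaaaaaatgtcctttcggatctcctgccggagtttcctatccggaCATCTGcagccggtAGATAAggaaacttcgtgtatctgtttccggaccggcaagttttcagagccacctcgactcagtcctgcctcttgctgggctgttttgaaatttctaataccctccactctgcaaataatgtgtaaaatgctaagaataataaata

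The Tal1 gene lies on the plus strand of chromosome 4 from 115056426 to 115071755, and its window also holds Cmpk1, Stil, Pdzk1ip1 and Cyp4x1. The window had 13 distal and 7 promoter sites. The most widely recovered was the intergenic site at +39.5 kb (115095414 to 115096531), within 1 kb of an enhancer active in early red cells, with 127 distinct fragments in 16 of 25 positive sets. Its levels in positive replicates 1 to 5 were 1.50, 1.55, 0.69, 0 and 0 per 10000 in ES, and 1.60, 2.10, 0, 0 and 4.45 in HP. In the Negative cells of HP they were 1.94, 1.14, 0, 2.53 and 0. With all replicates pooled, the positive level was 1.38 per 10000 in ES (95% Poisson interval 0.947 to 1.93) and 1.74 in HP (1.28 to 2.32), and these intervals overlap. Poisson intervals here cover counting error only. The site was thus recovered at similar levels at every stage and in both sorts.

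A different stage pattern was seen at Tal1 -3.7 kb (115052401 to 115053134, intergenic) and at Tal1 +19.3 kb (115075282 to 115076241, intergenic). The former lies within 1 kb of an endothelial and blood enhancer bound by ETS factors, and the latter within 1 kb of the Tal1 stem cell enhancer. Neither gave a fragment in any ES set, positive or Negative. At -3.7 kb, the positive sets of HB, HE1, HE2 and HP gave 17, 20, 16 and 12 fragments. At +19.3 kb they gave 13, 21, 16 and 15. The level of +19.3 kb in the positive HP sets was 0.41, 0.90, 4.33, 0 and 0 per 10000, where 4.33 rests on 1 fragment. A count of 0 was taken to allow up to 0.125 per 10000 in the ES positive sets (3 counts over all 5). The pooled HB level was 4.71-fold that limit at -3.7 kb and 3.60-fold at +19.3 kb. These folds leave out the counting error of the HB counts, so that they are not lower bounds. The lower Poisson limits of the pooled positive HB levels were 0.343 and 0.240 per 10000. Both lay above the upper Poisson limit of 0.154 in the positive ES sets. Fragments at both sites came mainly from replicates 1 and 2.

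Within the gene, the promoter site at +0.6 kb (115056206 to 115057817) gave 7, 10, 18, 12 and 6 positive fragments from ES to HP. The site at +6.7 kb, whose middle is in a coding exon of Tal1, gave 4, 10, 14, 13 and 6. Its levels in the positive ES sets were 0.30, 0.10, 0, 0 and 0 per 10000, and in those of HE1 0.30, 0.25, 0, 1.51 and 0. Both sites were thus found at all 5 stages.

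**Figure D1:**
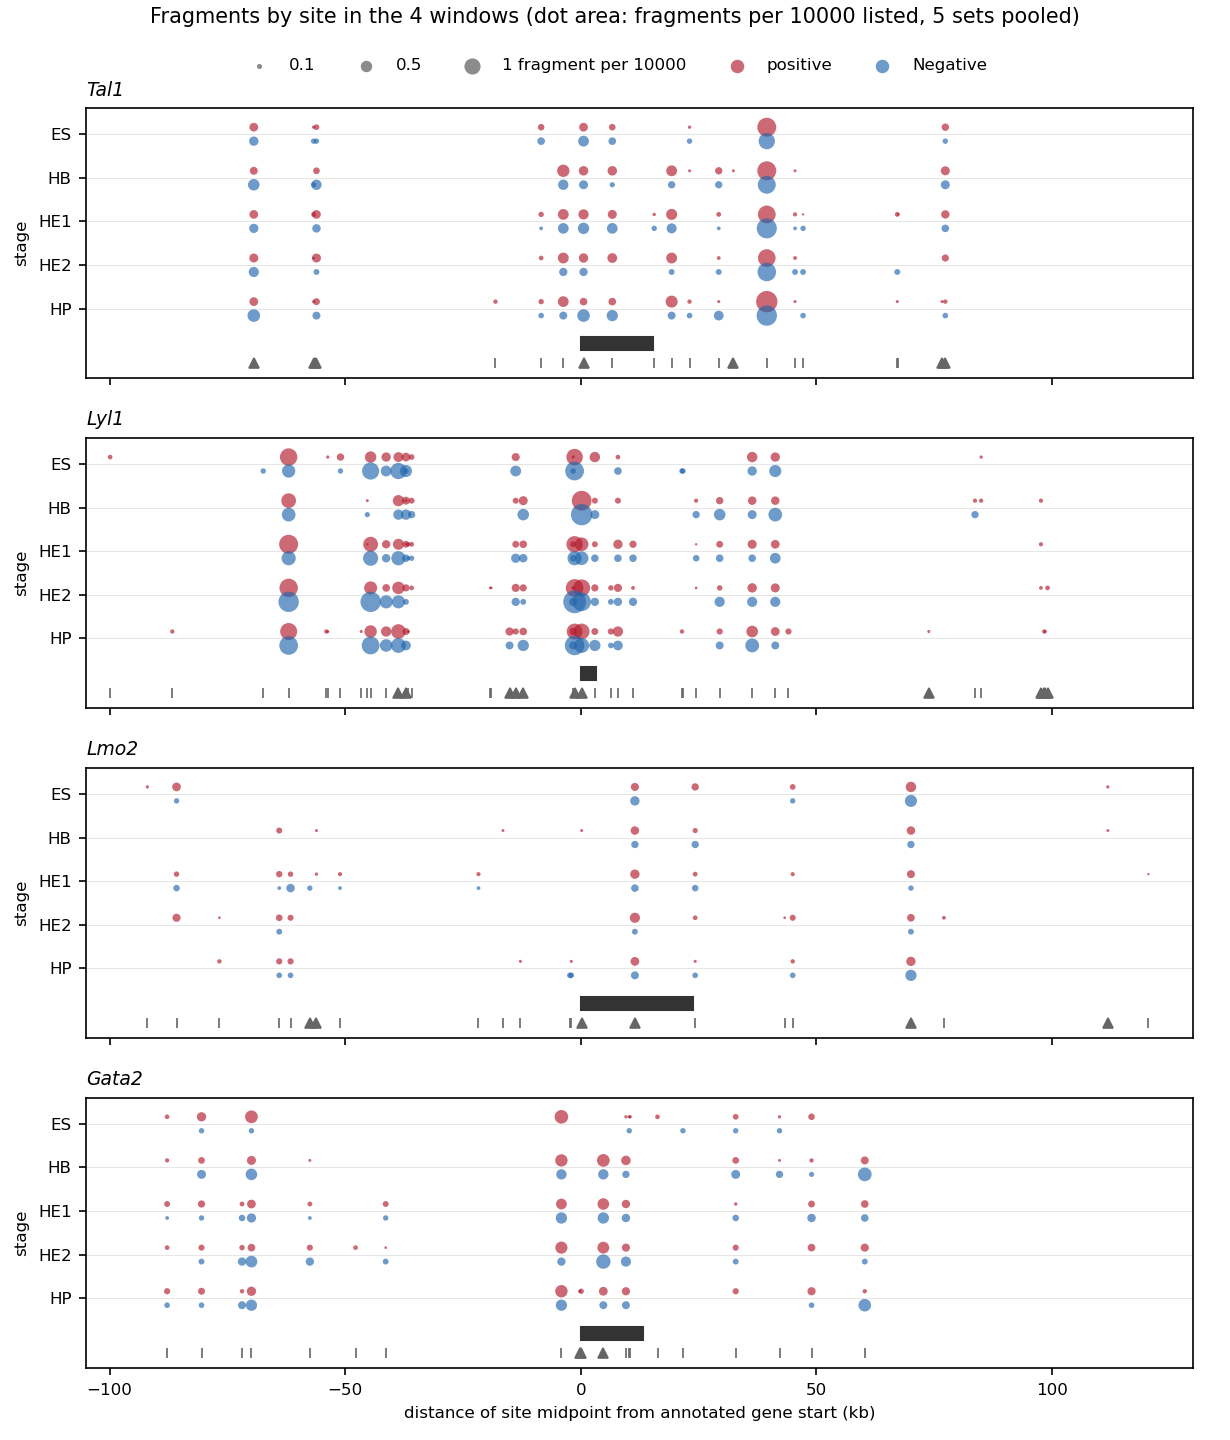
Sites of the 4 windows by distance from the annotated gene start (kb, horizontal axis) at each stage (rows), with positive cells in red above each line, Negative cells in blue below it, and the dot area in proportion to fragments per 10000 listed with the 5 sets pooled. In the bottom row, ticks mark distal sites, triangles promoter sites and the black bar the gene body. Tal1 -3.7 kb and +19.3 kb are empty in ES, whereas Tal1 +39.5 kb is filled at every stage.

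The Lyl1 gene lies on the plus strand of chromosome 8 from 84701457 to 84704715, close to 6 other protein-coding genes (Cacna1a, Ier2, Nacc1, Trmt1, Nfix and G430095P16Rik). With 30 distal and 12 promoter sites, this window was the richest of the 4. Its own promoter site at +0.2 kb (84701283 to 84702064) was empty in all ES sets and gave 43, 32, 39 and 26 positive fragments from HB to HP. In the positive HB sets the levels were 1.89, 1.15, 0.80, 1.70 and 10.8 per 10000, and those of all ES sets were 0. The level of 10.8 is that of replicate 5, the smallest positive HB set with 1848 fragments. The pooled HB level was 1.49 per 10000 (1.08 to 2.01), which is 11.9-fold the limit that a count of 0 allows in ES. The Negative HB sets also held the site, with levels of 1.49, 2.38, 0, 0 and 0.

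The neighbouring site at -1.3 kb (84699845 to 84700471), also in the promoter class, was empty in HB and not in ES. From ES to HP it gave 25, 0, 46, 42 and 26 positive fragments. The Negative sets followed with 12, 0, 14, 15 and 12. Without the HE1 lists that share fragments, the Negative HE1 count was 1 in place of 14, and the positive one 35 in place of 46. In the positive ES sets the levels were 1.20, 0.87, 1.37, 0 and 0 per 10000, and in those of HE1 0.78, 1.32, 0, 0 and 7.53. Given an upper limit of 0.104 per 10000 for HB, the pooled HE1 level was 9.91-fold that limit. The site over the Lyl1 start and the site upstream of it thus had complementary gaps, the former in ES and the latter in HB. They lie under 1 kb apart, and no fragment of the HB sets fell on -1.3 kb although +0.2 kb was well covered there.

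Further upstream, the intergenic sites at -44.6 kb (84656480 to 84657311) and -41.3 kb (84659877 to 84660444), both nearest to the immediate early gene Ier2, were also empty in HB. At -44.6 kb, positive fragments numbered 12, 0, 38, 23 and 16 from ES to HP. At -41.3 kb they numbered 8, 0, 12, 8 and 11. In HE1 the positive levels of -44.6 kb were 0.87, 0.86, 0, 0 and 3.77 per 10000, and the pooled level was 8.19-fold the limit for HB. In contrast, the site at -62.0 kb (84639023 to 84639903), whose middle is in a coding exon of the calcium channel gene Cacna1a, was recovered at all stages in 17 of 25 positive sets, the most of any distal site in the 4 windows. Its positive fragments numbered 28, 24, 62, 46 and 30. Among sites in introns of Nfix, 3 were likewise found at all 5 stages, whereas others, such as +29.5 kb and +11.1 kb, were empty in ES: +36.4 kb gave 10, 8, 14, 12 and 14, +41.3 kb gave 8, 8, 13, 11 and 8, and +7.9 kb gave 2, 4, 15, 9 and 11.

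The Lmo2 gene lies on the plus strand of chromosome 2 from 103957986 to 103981878, and its window was the most sparsely covered. Of its 22 sites, 16 were distal and 6 were promoter sites, and the median site held 2 distinct fragments. The promoter site at +11.5 kb (103968881 to 103970004), in an intron of Lmo2 and beside an internal start, gave 6, 8, 15, 14 and 8 positive fragments from ES to HP. Its levels in the positive HE2 sets were 0.30, 0.62, 0, 0 and 0 per 10000. At +0.2 kb, near the upstream start, 1 fragment was found, in a positive HB set.

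Distal Lmo2 sites were each recovered from few sets. The intergenic site at -64.0 kb (103893775 to 103894199) had 11 distinct fragments in 10 positive sets. It was empty in ES and gave 4, 7, 6 and 4 positive fragments from HB to HP. Its pooled positive HB level was 1.11-fold the upper limit that a count of 0 allows in ES. The Poisson interval of that HB level, 0.0378 to 0.355 per 10000, includes this limit, so that no difference was shown at this depth. At -85.8 kb (103871902 to 103872466), fragments were present in ES, HE1 and HE2 (7, 5 and 9) and absent from HB and HP. The site at +45.0 kb, in an intron of 4931422A03Rik, gave 3, 0, 3, 5 and 2. A single fragment, from HP, was found at -12.8 kb, within 1 kb of the position looked up for an upstream element. No other distal site lay within 1 kb of the Lmo2 element positions that were looked up. These positions were counted from the annotated gene start, and counting from the internal start was not tried. Whether a distal site such as -64.0 kb is a known element was thus not settled.

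The Gata2 gene lies on the plus strand of chromosome 6 from 88193891 to 88207032, and its window holds Rpn1, Dnajb8 and Eefsec as well. It had 17 distal and 3 promoter sites. Gata2 uses alternative first exons. The promoter site at +0.1 kb, over the upstream start, gave 3 fragments in all, each in the positive sets of HP. The promoter site at +4.8 kb (88198286 to 88199083), over the internal start, was empty in ES and gave 18, 23, 19 and 8 positive fragments from HB to HP. In HB its levels were 0.66, 0.57, 0.80, 0 and 0 per 10000. Its pooled HB level was 4.98-fold the limit that a count of 0 allows in ES.

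The distal site at -4.1 kb (88189371 to 88190285), in an intron of the noncoding gene Gm38708, gave 17, 17, 20, 20 and 16 positive fragments from ES to HP. Scaled to the lists, the pooled level was 0.709 (95% Poisson interval 0.413 to 1.14) in ES and 0.448 (95% Poisson interval 0.274 to 0.692) in HE1, and these intervals overlap. In ES the positive levels were 0.80, 0.58, 0.69, 1.94 and 0 per 10000, whereas no Negative ES set held a fragment. The Negative sets of HB, HE1, HE2 and HP held 4, 9, 2 and 4, and the HE1 count was 3 without the lists that share fragments. At -69.9 kb (88123625 to 88124377, intergenic) the positive ES levels were 0.50, 0.68, 0, 3.89 and 4.58, and those of the Negative ES sets were 0.43, 0, 0, 0 and 0. Within the positive ES cells this site had 13 fragments in the joined Medium, High and Medium-High lists and 2 in the Low lists, which are shorter. The pooled levels were 0.731 (95% Poisson interval 0.389 to 1.25) and 0.246 (95% Poisson interval 0.0298 to 0.889) per 10000, and these intervals overlap. No distal site lay within 1 kb of the far upstream Gata2 enhancer at -77 kb.

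In the gene, the intronic site at +9.6 kb (88202939 to 88204014) lies within 1 kb of the intronic enhancer that drives Gata2 in hemogenic endothelium. It was recovered in 16 of 25 positive sets, with 1, 10, 12, 9 and 7 fragments from ES to HP. Its positive levels were 0, 0.10, 0, 0 and 0 per 10000 in ES, and 0.16, 0.33, 0.54, 3.40 and 0 in HB. Negative HB sets held 2 fragments, and the level of replicate 4 there was 5.77 from a single fragment. Thus 4 of 5 HB sets lay above all ES sets in the positive cells, and the share of all sites with such a pattern was not counted.

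**Figure D2:**
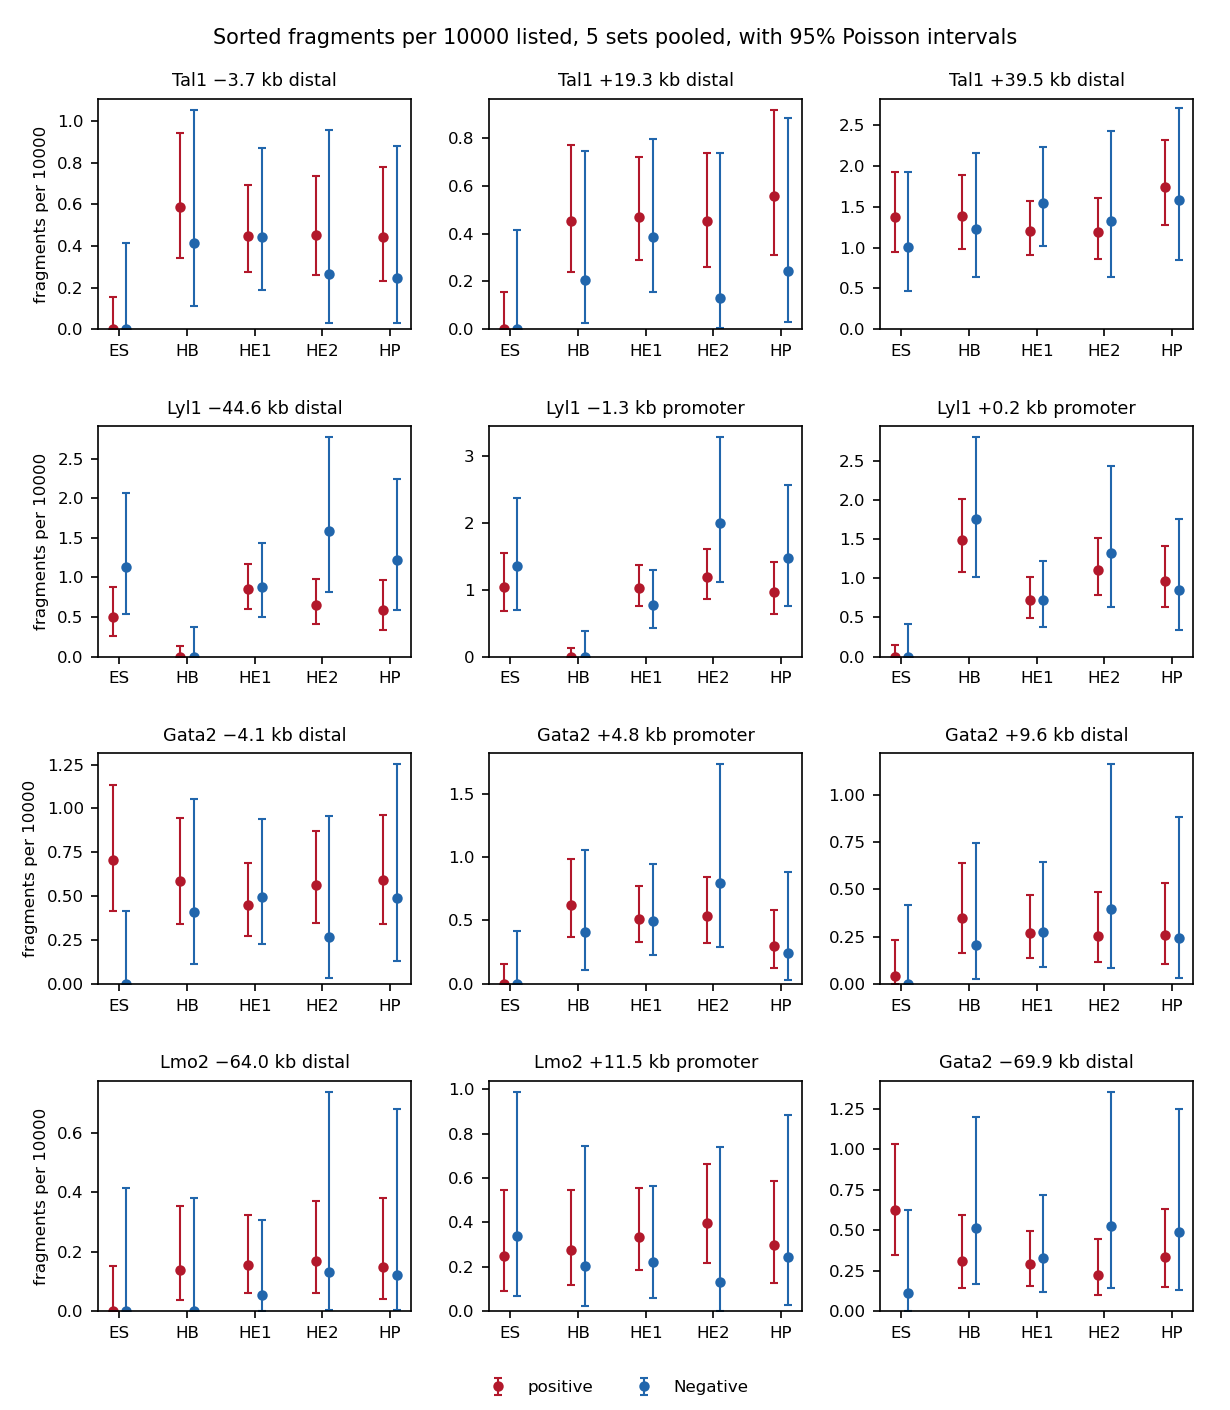
Levels of 12 sites by stage, as fragments per 10000 listed with the 5 sets pooled (vertical axis), in positive (red) and Negative (blue) cells, with bars for 95% Poisson intervals that cover counting error only. Lyl1 +0.2 kb is at 0 in ES and highest in HB (1.49 in positive cells), whereas Lyl1 -1.3 kb and Lyl1 -44.6 kb are at 0 in HB.

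Whole windows were compared next, to ask whether the loci as a unit were recovered more often from YFP-positive cells or at some stage. Per 100 kb of window, the mean level over the 25 positive sets was 3.52 ± 2.38 for Lyl1, 1.51 ± 1.10 for Gata2, 1.50 ± 0.849 for Tal1 and 0.392 ± 0.413 for Lmo2 (SD, n = 25 sets). The median over 21911 windows of protein-coding genes was 0.690, and Lyl1 stood at the 95.5th percentile and Lmo2 at the 36.6th. In this order, Gata2 and Tal1 differ by far less than their spread, and Lyl1 and Gata2 by less than the SD of Lyl1, whereas Tal1 and Lmo2 differ by more than the SD of either. The 12 promoter sites of the Lyl1 window include those over the starts of Ier2, Nacc1 and Trmt1, and the window levels count them.

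Gata2 in ES was the 1 comparison of the 56 made on windows in which the groups did not overlap. The positive levels in replicates 1 to 5 were 2.3, 2.23, 1.71, 5.83 and 4.58 per 10000, and the Negative levels were 0.858, 0.680, 0.534, 0 and 0. These levels rest on 23, 23, 5, 3 and 1 positive and on 2, 3, 1, 0 and 0 Negative fragments. In Negative replicates 4 and 5, 1 fragment would have given 5.99 and 11.4 per 10000. All 5 positive sets lay above all 5 Negative sets, with means of 3.33 ± 1.78 and 0.414 ± 0.395 (SD, n = 5). The same was true of 0.309% of 17778 windows tested. A two-sided exact permutation test on this window alone gave p = 0.00794, the smallest that 252 splits allow, with no adjustment for the 56 tests. In the fit across all windows the difference was 1.57 ± 0.68 (SE) on the log2 scale, with 1 added to each level, and was not called (limma, adjusted p = 0.999). At later stages, positive and Negative sets of Gata2 overlapped. In HB they were 2.38, 2.87, 2.68, 5.1 and 0 against 3.84, 2.38, 1.95, 11.5 and 0.

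The Tal1 window was at 3.30, 2.71, 1.37, 0 and 0 per 10000 in the positive ES sets and at 4.11, 4.02, 5.08, 1.70 and 5.41 in those of HB. The HB set was the higher in 5 of 5 replicates, although the groups overlap because replicate 4 of HB was at 1.70. The exact permutation test gave p = 0.0397 without adjustment, and the limma difference was 1.23 ± 0.59 on the log2 scale (adjusted p = 1.00). In HE1, positive Tal1 levels were lower than Negative ones in 4 of 5 replicates (means 3.46 ± 1.00 and 5.59 ± 1.80, SD, exact permutation test, unadjusted p = 0.0317). The limma difference there was -0.56 ± 0.67 on the log2 scale (adjusted p = 1.00). It was -1.07 without the 4 lists that share fragments and -0.04 with replicates 1 and 2 alone. For Lmo2 in HP, the positive mean was 0.488 ± 0.669 and the Negative mean 3.46 ± 4.99, where a single fragment in replicate 5 gave 12.2 (limma log2 difference -1.11 ± 0.70, adjusted p = 1.00). Lyl1 levels ranged from 1.94 to 9.15 in positive and from 5.99 to 11.4 in Negative ES cells, and the groups overlapped at every stage.

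**Figure D3:**
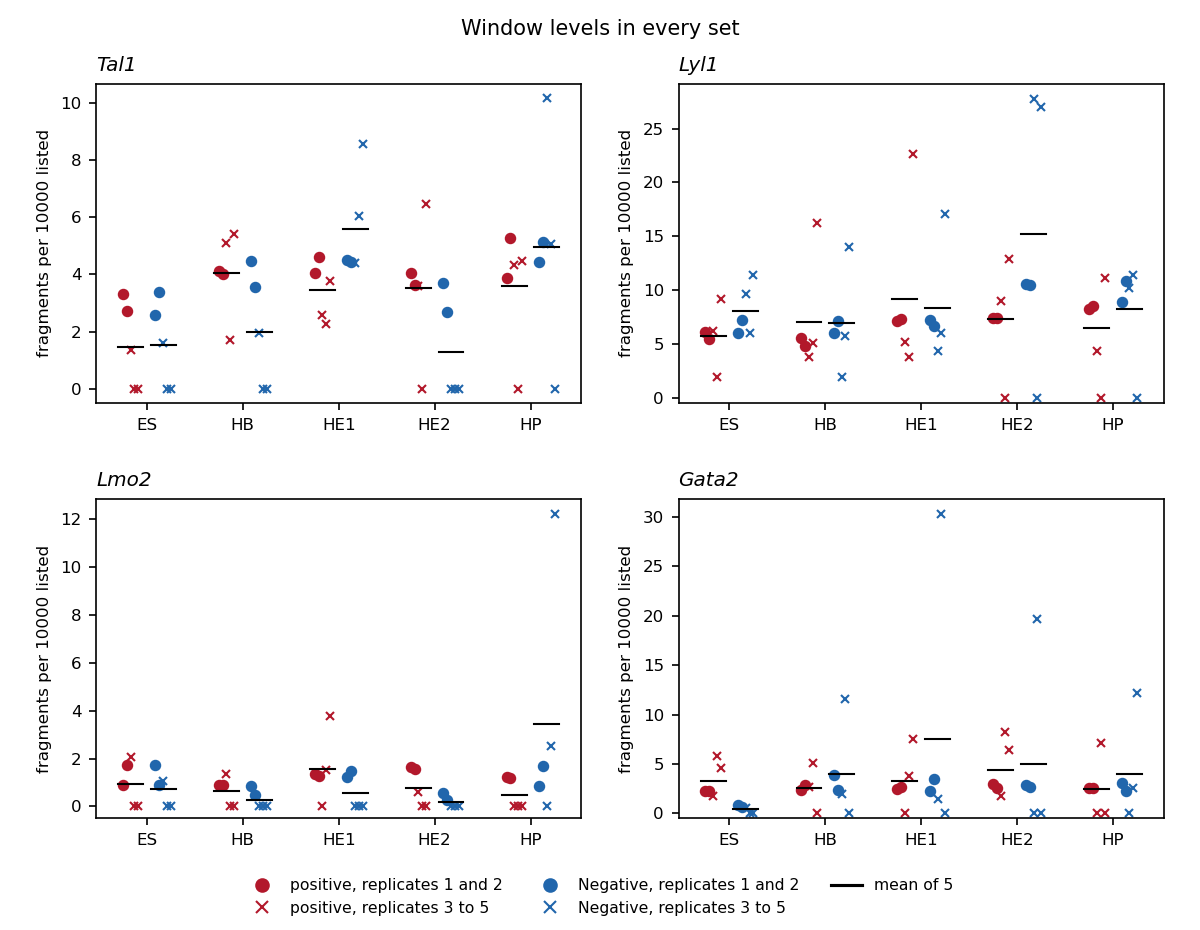
Level of each window (distinct fragments per 10000 listed, vertical axis) in every set by stage, with positive sets in red, Negative sets in blue, circles for replicates 1 and 2, crosses for replicates 3 to 5 and a bar for the mean of 5. In ES the Gata2 window has all red points between 1.71 and 5.83, above all blue points.

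Across the 16 limma comparisons, no window of the 4 genes and no site of theirs passed an adjusted p of 0.05. For windows, 0% of the 16331 to 18611 tested were called in each comparison of positive with Negative sets, of adjacent stages and of gates. At an unadjusted p below 0.05, 195 to 454 windows passed in the first kind, 433 to 773 in the second and 107 to 354 in the third. A test for any difference between stages called 0.068% of windows over positive sets and 0% over Negative sets. For sites, 0% were called in each comparison other than HB against ES (0.00557%), any stage in positive cells (0.0115%) and any stage in Negative cells (0.00481%). Hardly any feature of the genome was called. Depending on the comparison, between 11 and 49 of the 104 member sites had fragments in enough sets to be tested, so that each comparison left most sites untested.

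Lyl1 +0.2 kb and Tal1 -3.7 kb, at 0 in every ES set, entered the fit of HB minus ES through their HB sets alone, and Gata2 -4.1 kb, at 0 in every Negative ES set, entered through the positive ones, so that no fitted difference is given for them. Gata2 +9.6 kb likewise entered HB minus ES through its HB sets, since these alone were enough sets for the test. For Gata2 -69.9 kb in ES, the positive sets alone were enough against Negative cells, and the brighter gates alone against the Low gate. No fitted difference is given for these sites either. In comparisons of gates, no window of the 4 genes had an unadjusted p below 0.05 (limma), and their largest differences were 1.24 in ES and 1.23 in HE2, each for Gata2.

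Limited to replicates 1 and 2, where depth was greatest, the same fit called member sites, and the share called over all sites is given with each count. For HB minus ES, 6 sites were called with a background of 13.3%. They included Tal1 +19.3 kb and Gata2 +4.8 kb and, with the opposite sign, Lyl1 -1.3 kb. For HE1 minus HB, 4 sites were called with a background of 17.8%, among them Lyl1 -1.3 kb and Lyl1 -44.6 kb. Each of these named sites was at 0 in both sets of a stage, which adds no spread to the fit, and was tested only through its other stage. These calls therefore restate the gaps described above and are no further evidence of them. For positive minus Negative cells, 2 sites were called in ES (background 8.08%) and 1 in HB (7.55%). For bright against Low gates in ES 1 site was called (6.72%). For any difference between stages, 5 sites (7.28%) and the Lyl1 window (9.66% of windows, limma adjusted p = 0.00128) were called. With 2 sets per group, nearly equal values can give a very small SE, and 5 of the calls (for example Gata2 -87.8 kb in ES) were differences under 0.14 on the log2 scale.

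Sites that were empty at a stage were then set against the rest of the series, taking sites with at least 20 distinct fragments. Of 18 such distal member sites, 4 had no fragment in ES (Tal1 -3.7 kb, Tal1 +19.3 kb, Lyl1 +29.5 kb and Gata2 +60.3 kb), where 27% of all distal sites of this kind had none. In HB 3 were empty (Lyl1 -44.6 kb, Lyl1 -41.3 kb and Lmo2 -85.8 kb, background 15.5%) and in HP 1 (Lmo2 -85.8 kb, background 6.11%). In HE1 and HE2 0 were empty (0.864% and 0.819%). Of 12 promoter sites, 3 were empty in ES (Lyl1 -12.2 kb over the Trmt1 start, Lyl1 +0.2 kb and Gata2 +4.8 kb, background 3.65%) and 1 in HB (Lyl1 -1.3 kb, background 3.49%). In HE1, HE2 and HP 0 were empty (0.722%, 0.781% and 3.18%). The distal shares are near the background, and 3 of 12 promoter sites in ES is above it. By this definition each site was empty in positive and Negative sets alike. Per the study's methods, the lists had been limited to open chromatin peaks, and the sources used here do not say which stage's peaks were applied to which list. The part of that filter in the gaps was not tested.

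The plasmid lists were examined at the sites that were empty in sorted cells. Every site with at least 20 distinct fragments that was empty in the sorted ES cells had fragments in the pDONR list of ES, for example 31 distinct fragments at Lyl1 +0.2 kb. In the pSKB list of ES, which is the reporter vector, Lyl1 +0.2 kb had 5, Tal1 -3.7 kb 7, Tal1 +19.3 kb 4 and Gata2 +60.3 kb 0. The level in HE1 over that in ES was 6.13-fold in pDONR (95% interval 3.91 to 10.1) and 5.86-fold in pSKB (2.61 to 15.5) at Tal1 -3.7 kb, and 6.69-fold (4.35 to 10.8) and 12.2-fold (4.49 to 46.6) at Tal1 +19.3 kb. The part of this lower representation in the ES gaps was not tested. Representation in these lists differed by stage, in distinct fragments per 1000000. The Tal1 window was at 162, 226, 329, 353 and 378 in the pDONR lists from ES to HP. The Lyl1 window was at 517, 476, 532, 582 and 608. The Lmo2 window was at 117, 151, 145, 151 and 178, and the Gata2 window at 233, 286, 242, 276 and 294. Over both vectors, HE1 over ES was 1.98-fold for Tal1 (95% interval 1.85 to 2.11), 1.24-fold for Lmo2 (1.14 to 1.35), 1.04-fold for Gata2 (0.980 to 1.11) and 1.02-fold for Lyl1 (0.983 to 1.07). There was 1 list per stage and vector, and the intervals hold counting error alone. Among all windows, the pDONR fold of Tal1 in HE1 was at the 99.8th percentile, and that of Gata2 was at the 56.0th.

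At Tal1 +39.5 kb the pDONR levels from ES to HP were 7.95, 22.8, 35.7, 44.0 and 61.4 distinct fragments per 1000000. The sorted cells did not follow this order, since the pooled positive level lay between 1.19 and 1.74 per 10000 at all stages. At Tal1 -3.7 kb and Tal1 +19.3 kb the pDONR levels in ES were 3.71 and 4.06 distinct fragments per 1000000, and those in HE1 were 22.8 and 27.2. Lyl1 -1.3 kb was at 5.48 in ES, 4.98 in HB and 42.7 in HE1. In pDONR the HB over ES fold was 0.909 (0.535 to 1.55) and in pSKB 1.74 (0.465 to 7.87), whereas the sorted ES sets held 25 positive and 12 Negative fragments of this site and the HB sets held 0. Lyl1 -44.6 kb was at 14.1 in ES and 18.0 in HB, a fold of 1.27 (0.947 to 1.72), and in pSKB the fold was 0.812 (0.472 to 1.39). Gata2 -69.9 kb was highest in ES at 21.2, against 9.62 in HE1, and Gata2 -4.1 kb stayed between 17.4 and 23.8. Lmo2 -64.0 kb was at 0.707, 15.3, 3.74, 6.59 and 14.3 from ES to HP. The pSKB lists gave the same order of ES and HE1 at each of these sites.

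**Figure D4:**
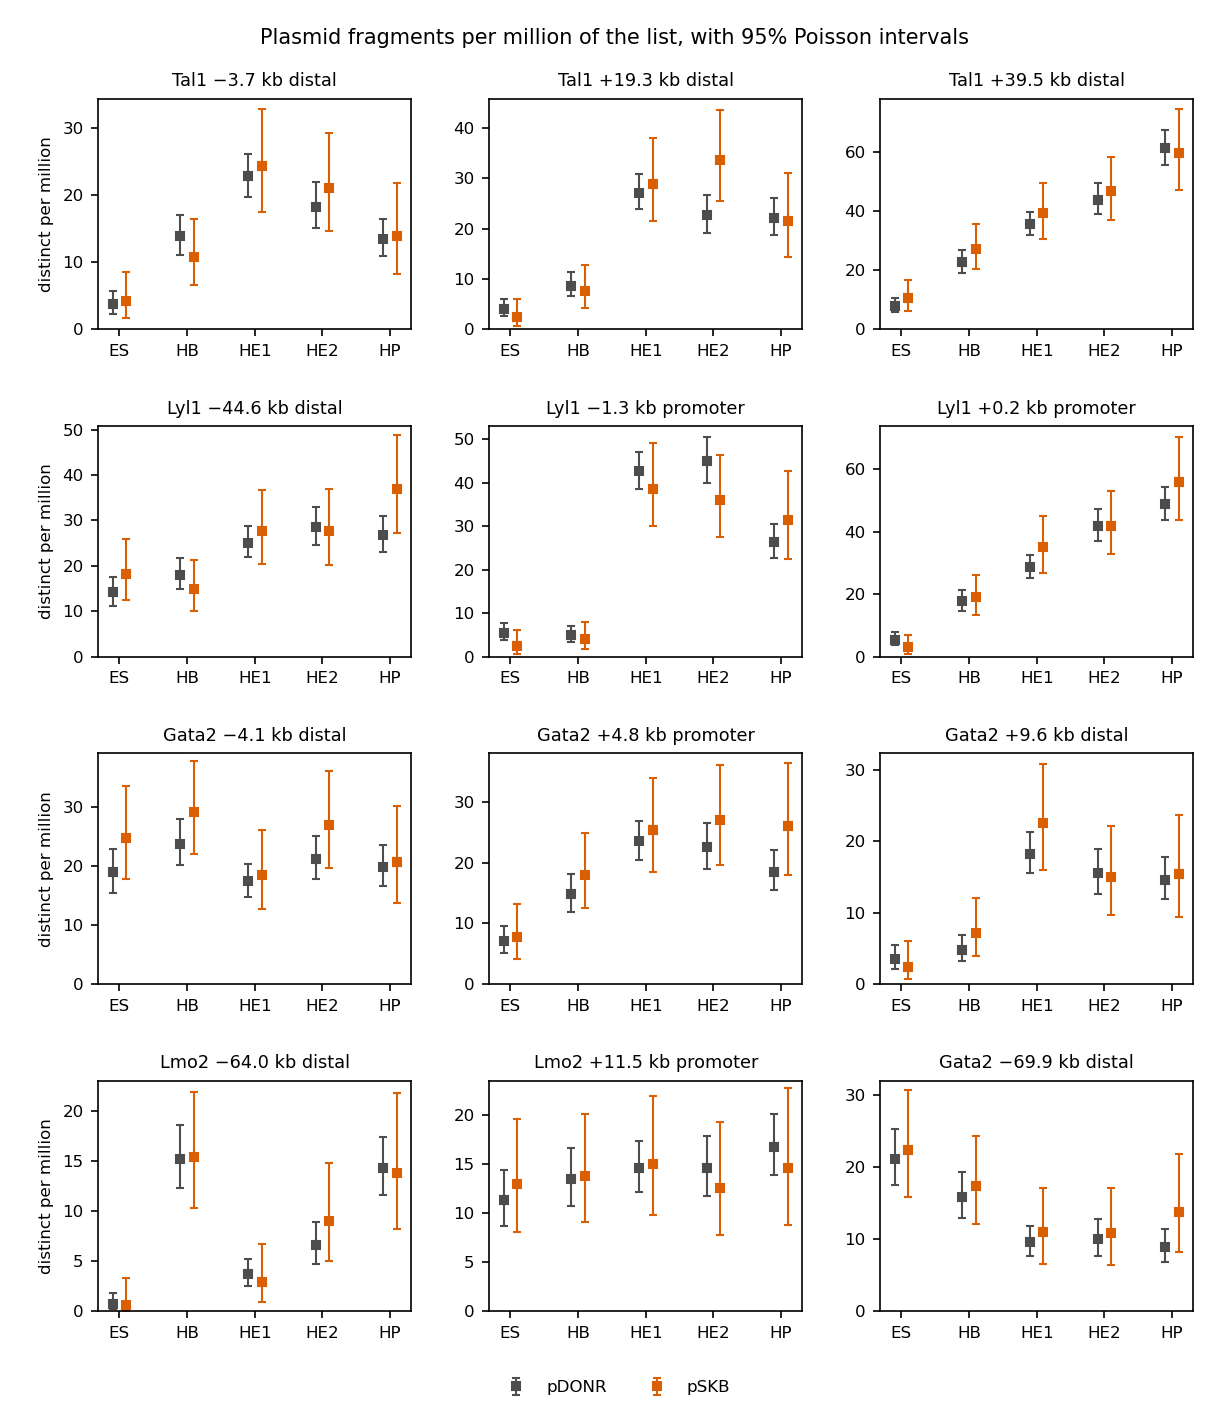
Distinct fragments per 1000000 in the plasmid lists (vertical axis) by stage for the same 12 sites, with pDONR in grey, pSKB in orange, 1 list per stage and vector, and bars for 95% Poisson intervals. Tal1 +39.5 kb goes from 7.95 in ES to 61.4 in HP in pDONR, whereas Gata2 -4.1 kb stays between 17.4 and 23.8.

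Between 80.7% and 87.7% of the listed fragments of each window were identical to a plasmid fragment, against 83.5% of all listed fragments. Of the Tal1, Lyl1, Lmo2 and Gata2 listings, 10, 9, 0 and 8 were identical to a fragment of the HM-1 controls. These are 1.13%, 0.553%, 0% and 1.38% of the listings, against 0.680% of all sorted listings, so that Tal1 and Gata2 lay above that share. The 3 control lists were short, with 2441, 10895 and 1945 fragments. They held 2, 7 and 0 fragments of the Tal1 window, or 8.19, 6.42 and 0 per 10000, where the pooled positive levels ranged from 2.71 to 4.23. For Lyl1 they held 2, 9 and 2, or 8.19, 8.26 and 10.3 per 10000, where the pooled positive levels ranged from 5.02 to 8.23. Lmo2 had 0, 2 and 0 fragments and Gata2 0, 1 and 1. At Tal1 the third control was thus at 0 and the others lay above the sorted range, each on few fragments. At Lyl1 the controls lay within or above that range. Per the study's methods, the sorted lists had been limited to open chromatin peaks and plasmid fragments, and control fragments had been removed. By identical coordinates, the lists used here met this only in part, given the shares of 83.5% and 0.680%. Whether the control lists were limited to such peaks and fragments is not stated in the sources used here, so that the scales may differ. The part of such background in the sorted lists was not tested.

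Motifs that the complex binds were counted in the 300 bp around the point of most fragments of each distal site. A GATA motif (AGATAA or TGATAA, both strands) was present in 19 of 76 member sites (25.0%) and in 28.1% of all 58911 distal sites. An E-box (CAGCTG or CAGATG, both strands) was present in 29 (38.2%) and in 42.6% of all. The composite of an E-box and a GATA motif, in which CANNTG is followed by AGATAA after 7 or 8 bases, was found in 0 of 76 and in 0.516% of all. The shares of the members were thus near those of distal sites at large. Of the printed stretches, Lmo2 -64.0 kb held 2 GATA motifs and 1 E-box, and Tal1 -3.7 kb, Tal1 +19.3 kb, Lyl1 -62.0 kb, Gata2 -69.9 kb and Gata2 -4.1 kb held none.

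Over whole sites, Gata2 +9.6 kb alone of the 76 held the composite, on the plus strand at chr6:88203185-88203204, where 0.540% of all distal sites held one. It lies 247 bp from the start of the site and therefore outside the part with most fragments. Only 9 of the 34 distinct sorted fragments of the site spanned it. In positive sets they gave 0, 0, 5, 3 and 2 fragments from ES to HP, and in Negative sets 0 at every stage. The pDONR lists held 1, 3, 33, 17 and 22 spanning fragments from ES to HP. Fragments with the composite were thus few in the ES and HB plasmids. At Tal1 +39.5 kb, a TGATAA and a CAGCTG separated by 5 bases (chr4:115095976-115095992) were spanned by 50 of 127 distinct fragments. These gave 11, 14, 22, 13 and 19 positive and 5, 4, 13, 5 and 5 Negative fragments from ES to HP, hence at every stage and in both sorts. The pDONR lists held 11, 63, 137, 103 and 150 of them.

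For comparison, 9 further genes of the same circuit were given windows in the same way: Runx1, Erg, Fli1, Gata1, Ldb1, Tcf3, Tcf12, Cbfa2t3 and Ssbp3. All 9 were tested in every kind of comparison and 0 were called by limma. With replicates 1 and 2 alone, 4 of the 9 were called for any difference between stages, in the fit that called the Lyl1 window: Cbfa2t3 (limma adjusted p = 0.000160), Erg (0.000283), Ssbp3 (0.00756) and Runx1 (0.0112). For HB minus ES, Runx1, a master regulator of the endothelial to blood transition, gave a log2 difference of 1.34 ± 0.57 (limma adjusted p = 1.00) and Erg, an ETS factor gene, 1.41 ± 0.48 (limma adjusted p = 0.969). Both differences were of the size seen for Tal1.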

How the data were processed

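Per the study's methods and processing notes, the authors used TrimGalore for trimming and Bowtie2 for mapping to mm10, selected pairs by mapping quality with Samtools, removed duplicates, removed fragments found in HM-1 controls, kept fragments found in plasmid lists and open chromatin peaks, and split them by distance to transcription starts. The sorted lists were deposited as coordinates, each fragment once, without read counts. The plasmid and control lists were deposited by the authors with a whole-number count per fragment, whose meaning the sources used here do not state. Sorted starts were moved by 1 bp to match the plasmid lists.

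The 4 genes, the known elements and the circuit list were chosen with earlier results of these data known. Distinct fragments per 10000 listed were compared as log2(level + 1) with limma 3.58.1 (lmFit, eBayes with trend, R 4.3.3). Only features found in 4 or more of the compared sets entered the fit, over windows of all 21911 protein-coding genes and over all 76765 sites, with Benjamini-Hochberg adjustment and a threshold of 0.05. Lists of 720 to 229660 fragments per set limit precision. Named sites were the promoter sites of each gene, the 4 distal sites positive in the most sets, and distal sites within 1 kb of known elements. Sites empty at a stage were named after their values were seen. Code was tested on simulated data. Replicate numbers paired the sets by the correlation of their deviations in 6 of 28 comparisons, with all 5 correlations above 0.1 (for windows, HB minus ES 0.14 to 0.29 and bright minus Low gates in ES 0.14 to 0.33). Alternatives were another pseudocount and filter, the replicate block, leaving out replicates or shared HE1 lists, replicates 1 and 2 alone, other pooling, plasmid-matched fragments, narrower windows and distal fragments alone.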

Additional observations from a re-analysis of the deposited data

Results flagged for a closer look

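Of 40 groups of 5 window levels, 9 held a replicate far from the other 4. The rule used sets about 1 group in 20 apart by chance if values are normal with equal spread. These sets differ widely in depth, so that this rate does not hold here, and the count of 9 is not set against chance. All 9 lay in replicates 4 or 5, where sets are small and 1 fragment can weigh several units. In per 10000 listed fragments, the lone values were 0 for Tal1 in positive HP cells (replicate 4), 16.2 for Lyl1 in positive HB cells (replicate 5), 22.6 for Lyl1 in positive HE1 cells (replicate 5) and 17.1 for Lyl1 in Negative HE1 cells (replicate 5). They were 0 for Lyl1 in Negative HP cells (replicate 5), 12.2 for Lmo2 and 12.2 for Gata2 in Negative HP cells (replicate 5), 30.3 for Gata2 in Negative HE1 cells (replicate 4) and 19.6 for Gata2 in Negative HE2 cells (replicate 4). The level of 12.2 was 1 fragment in each case, and that of 30.3 was 5 fragments. The part of depth in these values was not tested.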

How the results depend on the processing

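The limma fits called 0 windows and 0 sites of the 4 genes, and this count was unchanged with a pseudocount of 0.25, a filter of 2 sets, pooling by mean, plasmid-matched fragments, windows of 50 kb, distal fragments alone, merged kinds and without the shared HE1 lists. Leaving out replicates gave 0 to 0 calls in every kind of comparison. With the replicate number as a block, 0 members were called as well, and the block changed no member's call. The count changed with replicates 1 and 2 alone: 1 window (Lyl1) for any stage, 3 sites for positive against Negative cells, 10 for adjacent stages, 1 for gates and 5 for any stage. It also changed under the unadjusted exact permutation test of windows, with 2 below 0.05 for positive against Negative cells (Gata2 in ES, Tal1 in HE1) and 1 for adjacent stages (Tal1, HB against ES). The 10 log2 differences of windows and sites that were recomputed kept their direction in all 117 values, and 3 passed a threshold, each in that exact test. For the exact test the log2 difference of the main fit was carried over, so that its direction could not change. GATA motifs were in 11 of 76 distal sites with 200 bp in place of 19 with 300 bp. Shallow sets of replicates 3 to 5 limit what can be called.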
